A study of Mus musculus with 2 samples.

Results

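miRNA genes linked to nerve and glia, 10 in number, were followed in small RNA libraries of newborn mouse skeletal muscle. The genes were chosen by symbol from what is known of them: Mir218-1 and Mir218-2 as motor neuron linked, Mir338 as glia linked, and Mir128-1, Mir128-2, Mir129-1, Mir129-2, Mir9-1, Mir9-2 and Mir9-3 as broadly neural. Of these 10 genes, 9 were matched by Ensembl identifier to a row among the 1973 listed genes, and Mir9-1 was not analysed here. The study held 2 libraries of RNA under 30 bases, each from skeletal muscle of 1 untreated pup of strain B6NCrl on postnatal day 0. Both pups came from 1 pregnancy, their sex was not collected, and they are named replicate 1 (pup 1) and replicate 2 (pup 2). The labels name neither the muscle taken nor the nerve left in it, and they give 1 group, so every comparison below is between genes or between the 2 libraries.

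A miRNA gene is transcribed into a hairpin, from which Dicer releases a pair of short mature arms called 5p and 3p. The mature arm guides Argonaute to messenger RNAs, mainly through its seed, bases 2 to 8. miR-218 is abundant in motor neurons, and its genes lie in the genes of the axon guidance proteins Slit2 and Slit3. miR-338 promotes the maturation of myelinating glia. miR-9 and miR-124 act in neural progenitors and neurons, miR-129 is a neuronal miRNA, and miR-128 is enriched in brain and has also been studied in muscle. A muscle holds motor axons, their terminals and Schwann cells, while the cell bodies of motor neurons lie outside it. In bulk tissue, fewer cells of a type and less RNA per cell cannot be told apart.

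The sequences show which of these genes share a product, which bears on every count below. All 10 genes matched the RefSeq table (GRCm38.p6), with 12 different mature sequences and 11 different seeds. Printed 5′ to 3′ with the seed in capitals, the mature arms on which the results turn are as follows.
miR-338-3p: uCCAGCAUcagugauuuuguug
miR-218-5p: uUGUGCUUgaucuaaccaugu
miR-218-1-3p: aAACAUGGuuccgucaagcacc
miR-218-2-3p: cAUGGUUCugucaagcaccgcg
miR-128-3p: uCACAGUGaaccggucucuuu
miR-128-1-5p: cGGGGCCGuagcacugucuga
miR-128-2-5p: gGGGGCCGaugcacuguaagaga
miR-129-5p: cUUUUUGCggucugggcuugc
miR-129-2-3p: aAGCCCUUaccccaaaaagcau
miR-9-5p: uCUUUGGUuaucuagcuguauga

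Compared with the 2202 miRNA genes of GENCODE M21, miR-338-3p was found in Mir338 and in no other gene. The rest of the genome was not searched. miR-128-3p was found in both Mir128 genes, miR-218-5p in both Mir218 genes and miR-129-5p in both Mir129 genes. miR-9-5p was found in all 3 Mir9 genes. The 5p arms of Mir128-1 and Mir128-2 differ from each other but share the seed GGGGCCG. The 3p arms of Mir218-1 and Mir218-2 differ in their seeds as well. A read of a shared arm maps to more than 1 place unless it runs on into bases where the hairpins differ. After miR-128-3p this is already the next base, U in the Mir128-1 hairpin and C in that of Mir128-2, whereas after miR-129-5p the hairpins stay identical for 3 more bases. The deposited counts do not separate the arms, and reads that map to several places were listed apart from the genes, so counts at shared arms are uncertain.

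Replicate 1 held 3754895 counts on the genes' own strand and replicate 2 held 5133949, and levels are given as CPM, a gene's counts scaled to a library total of 1000000. For a count of 0 a limit of 3 counts is used, equal to 0.799 CPM for replicate 1 and to 0.584 CPM for replicate 2. Intervals are exact two-sided 95% Clopper-Pearson intervals, whose upper end for a count of 0 is somewhat higher, 0.982 and 0.719 CPM. Both cover counting error only. Reads mapping to several places were 30.2% and 29.9% of all reads. Mir206, a defining miRNA of skeletal muscle, had 79447 and 87198 CPM. The libraries differed in miRNAs of other tissues. All 7 genes of an epithelium and skin list were higher in replicate 1, and their summed level was 5688 CPM in replicate 1 and 230 CPM in replicate 2, with no gene of the list at 0. Mir140, a cartilage miRNA, had 6539 and 966 CPM.

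Taken as a set, the members made up little of the counts assigned to genes, and most of their counts came from 3 genes. Their counts summed to 1355 CPM in replicate 1 (1318 to 1393) and 1584 CPM in replicate 2 (1550 to 1619). Mir128-1, Mir128-2 and Mir338 held 98.4% of member counts in replicate 1 and 99.2% in replicate 2. Of the 9 genes measured, 5 had at least 10 counts in both libraries, 4 had fewer than 10 counts in total, and 1 of these 4, Mir9-2, had 0 in both. By class, the broadly neural genes summed to 1090 ± 180 CPM (SD, n = 2), the glia linked gene had 368 ± 13.4 CPM, and the motor neuron linked genes summed to 12.5 ± 4.50 CPM.

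**Figure D1:**
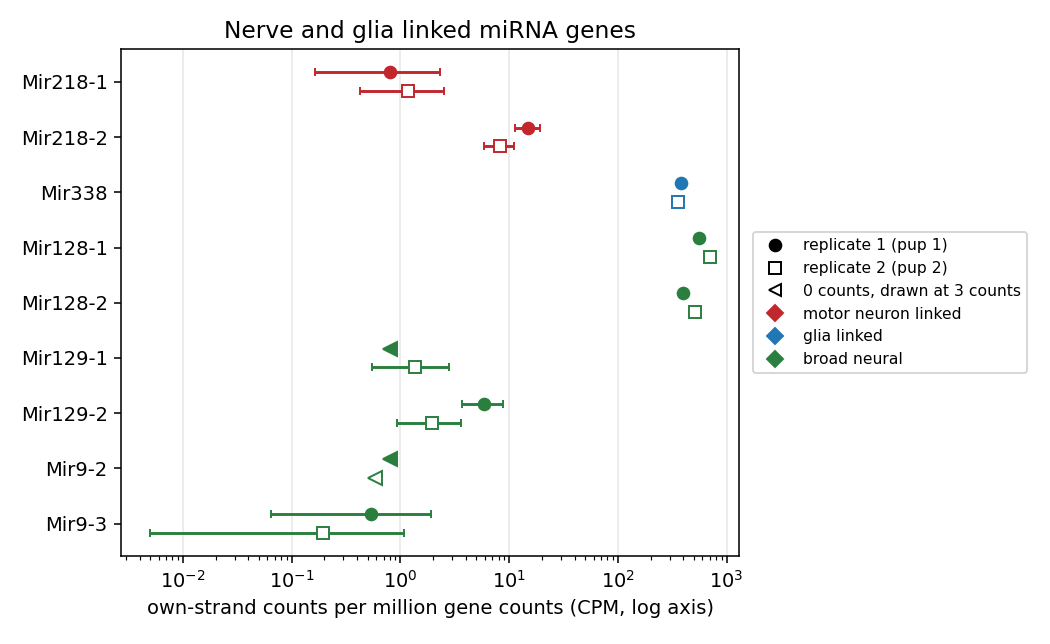
Own-strand level (CPM, log axis) of each of the 9 measured genes in replicate 1 (filled) and replicate 2 (open), coloured by class, with exact 95% intervals as bars and genes at 0 counts drawn as triangles at 3 counts. Mir338 and both Mir128 genes lie between 358 and 701 CPM, and all other genes lie under 15 CPM in each library.

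The motor neuron linked genes had few counts assigned to them. Coordinates are those of build mm10. Mir218-2 (ENSMUSG00000065583) sits within an intron of Slit3, on the plus strand of chromosome 11, bases 35616816 to 35616925. It had 56 counts in replicate 1, or 14.9 CPM (11.3 to 19.4), and 42 counts in replicate 2, or 8.18 CPM (5.90 to 11.1). Replicate 1 was the higher of the pair, and the intervals did not overlap. Mir218-1 (ENSMUSG00000065603) sits within an intron of Slit2, on the plus strand of chromosome 5, bases 48223942 to 48224051, and had 3 and 6 counts. Its level was 0.799 CPM (0.165 to 2.33) in replicate 1 and 1.17 CPM (0.429 to 2.54) in replicate 2, at most a few counts in either library. Mir218-2 was therefore 18.7 times Mir218-1 in replicate 1 (interval 6.07 to 93.2) and 7.00 times in replicate 2 (2.96 to 20.1). The pair has miR-218-5p in common and the 2 hairpins share a stretch of 22 bases, so a read of that arm that ends within the stretch fits both genes. How many such reads were among those with several places was not measured, so these counts give no level for miR-218-5p.

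The glia linked gene had counts well above those of both Mir218 genes. Mir338 (ENSMUSG00000065600) occupies bases 120014765 to 120014862 of chromosome 11 (minus strand), within an intron of Aatk, a kinase gene of the nervous system. It had 1416 counts in replicate 1, or 377 CPM (358 to 397), and 1839 in replicate 2, or 358 CPM (342 to 375). The 2 values were close and their intervals overlapped. Mir338 ranked 131st by mean CPM among the listed genes. Both of its annotated arms were unique to it among the miRNA genes compared. Its longest stretch in common with any other miRNA gene was 13 bases. Mir338 was the only one of the 10 genes without a shared stretch of at least 20 bases. Such a stretch was present in 9 of the 10, against 48.7% of the 1894 listed genes that have an M21 sequence.

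Mir128-1 was the highest member. The gene (ENSMUSG00000065520) occupies bases 128202361 to 128202430 of chromosome 1 (plus strand), within an intron of R3hdm1, and had 2090 counts in replicate 1, or 557 CPM (533 to 581). In replicate 2 it had 3597 counts, or 701 CPM (678 to 724). Mir128-2 (ENSMUSG00000065441), at bases 112118636 to 112118711 of chromosome 9 (minus strand) within an intron of Arpp21, a gene of striatal and other neurons, had 1500 counts or 399 CPM (380 to 420). It had 2631 counts in replicate 2, or 512 CPM (493 to 532). Both genes were higher in replicate 2, without overlap of the intervals. Mir128-1 was 1.39 times Mir128-2 in replicate 1 (1.30 to 1.49) and 1.37 times in replicate 2 (1.30 to 1.44). The 2 loci on different chromosomes thus stood in a like ratio in both pups. They share a stretch of 23 bases around miR-128-3p, and the share of counts from that arm was not measured.

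Few counts were assigned to the other broadly neural genes, at most 22 to a gene in either library. Mir129-2 (ENSMUSG00000065511), at bases 94241364 to 94241453 of chromosome 2 (minus strand) within an intron of the lincRNA gene Mir670hg, had 22 counts in replicate 1, or 5.86 CPM (3.67 to 8.87). In replicate 2 it had 10 counts, or 1.95 CPM (0.934 to 3.58). Replicate 1 was higher and the intervals did not overlap. Mir129-1 (ENSMUSG00000065469), at bases 29022619 to 29022691 of chromosome 6 (plus strand) within an exon of the lincRNA gene Gm3294, had 0 counts in replicate 1 and 7 counts, or 1.36 CPM (0.548 to 2.81), in replicate 2. Its one annotated arm is miR-129-5p, and it shares 26 bases with Mir129-2, so its counts cannot be compared firmly with those of its partner. Mir9-2 (ENSMUSG00000065424), at bases 83738814 to 83738885 of chromosome 13 (plus strand) within an exon of C130071C03Rik, had 0 counts in both libraries. Mir9-3 (ENSMUSG00000093238), at bases 79505264 to 79505353 of chromosome 7 (plus strand) within an intron of Mir9-3hg, had 2 counts in replicate 1 and 1 in replicate 2. Both arms of these Mir9 genes occur in all 3 Mir9 genes, and the stretches they share with another one reach 33 bases for Mir9-2 and 26 for Mir9-3. How many reads of miR-9 were among those with several places was not measured, so these counts give no level for it.

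**Figure D2:**
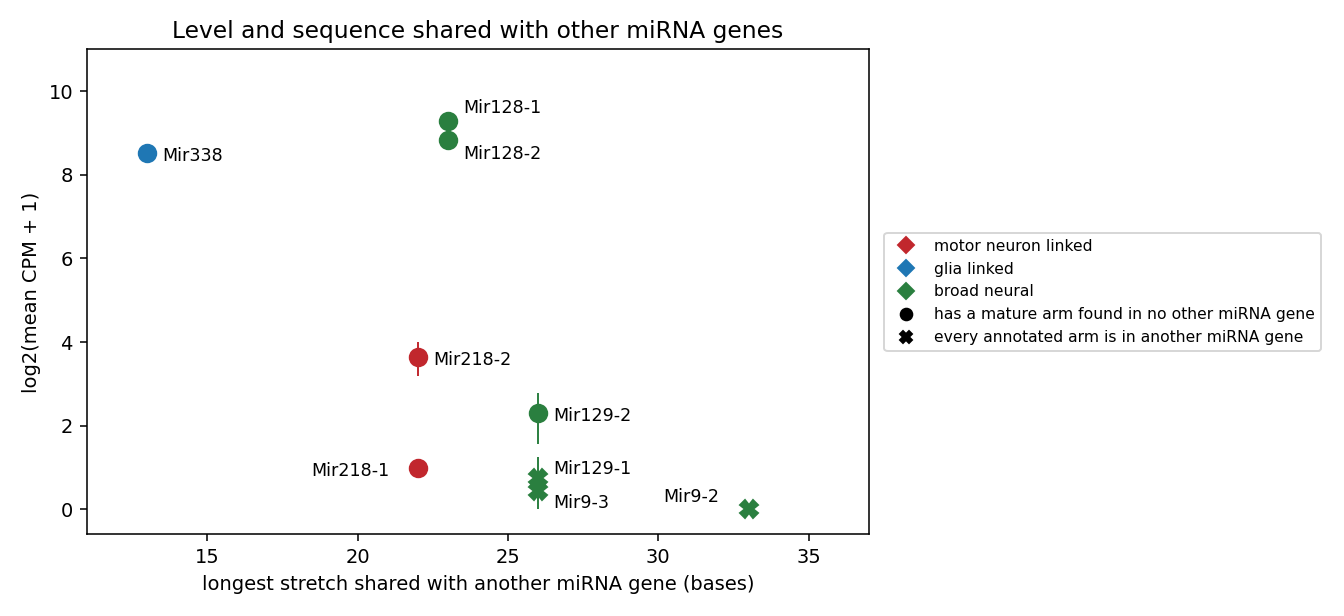
Mean level, as log2(CPM + 1), of each of the 9 measured genes against the longest stretch of bases it shares with another miRNA gene, coloured by class, with vertical lines from the lower to the higher library. Crosses mark the 3 genes whose every annotated arm is also found in another miRNA gene (Mir129-1, Mir9-2 and Mir9-3). These 3 lie under 1 CPM, as does Mir218-1, which has an arm found in no other miRNA gene. The Mir128 genes lie high despite a shared stretch of 23 bases.

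Ordered by mean CPM, the members were Mir128-1, Mir128-2, Mir338, Mir218-2, Mir129-2, Mir218-1, Mir129-1, Mir9-3 and Mir9-2. Mature lengths were 21 to 23 bases, so reads were not divided by length for this order. Divided by the length of the listed gene, Mir218-1 (0.894 CPM per 100 bases) and Mir129-1 (0.934) traded places, and the other positions were kept. The ranges of the 2 libraries did not overlap between neighbours from Mir128-1 down to Mir218-1. In replicate 2, however, the exact interval of Mir129-2 (0.934 to 3.58 CPM) overlapped those of Mir218-1 (0.429 to 2.54), Mir129-1 (0.548 to 2.81) and Mir9-3. The place of Mir129-2 above these genes was therefore not settled in that library. Mir218-1, Mir129-1, Mir9-3 and Mir9-2 each had fewer than 10 counts in total, and their exact intervals overlapped, so these 4 could not be ordered. Mir128-2 and Mir338 were the closest of the high genes, with Mir128-2 at 1.06 times Mir338 in replicate 1 (0.984 to 1.14) and 1.43 times in replicate 2 (1.35 to 1.52). In replicate 1 this difference lay within counting error.

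The 3 classes stood in the same order in both libraries, broadly neural above glia linked above motor neuron linked. The place of the broadly neural class rests on Mir128, which held 3590 of its 3614 counts in replicate 1 and 6228 of 6246 in replicate 2. Its other 4 measured genes, at 0 to 5.86 CPM, each lay below both Mir338 and Mir218-2. The glia linked level was 24.0 times the motor neuron linked level in replicate 1 (18.5 to 31.7) and 38.3 times in replicate 2 (28.8 to 52.2), a mean log2 ratio of 4.92 ± 0.48 (SD, n = 2). The broadly neural level was 2.55 times the glia linked level in replicate 1 (2.40 to 2.72) and 3.40 times in replicate 2 (3.22 to 3.58), a mean log2 ratio of 1.56 ± 0.29. These intervals did not overlap, so the gap between the 2 classes differed between the pups by more than counting error. Mir128-1 alone, in place of the sum of its class, gave a log2 ratio of 0.76 to Mir338. With each level divided by gene length, an alternative added after the data were seen, the log2 ratio of the class sums was 1.99. Against the motor neuron linked genes the broadly neural level was 61.3 and 130.1 times higher, a mean log2 ratio of 6.48 ± 0.77. No test over samples was run on these ratios, each of which rests on 2 values. The Mir218 genes share miR-218-5p and the Mir128 genes share miR-128-3p, while both Mir338 arms are unique among the miRNA genes compared. Reads that map to several places were left out of the counts. The class ratios are therefore uncertain beyond their intervals, which cover counting error only.

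The libraries were then compared gene by gene with an exact two-sided binomial test, which compares 2 libraries beyond counting error and not 2 conditions. A gene was called at a Benjamini-Hochberg adjusted p under 0.05 over all 373 genes with at least 10 counts in total, provided that it differed at least 2-fold. Ratios are log2 of replicate 2 over replicate 1 after edgeR's TMM scaling, with 0.5 added to each count. Against scaling by total counts, TMM moved every ratio by 0.13. Of the 5 members tested, 1 was called, Mir129-2, where 5.09% of all tested genes were called. Called genes higher in replicate 1 were 4.56% of those tested. Among genes with under 50 counts in total, such as Mir129-2, 6.59% were called. Without the 2-fold minimum, 4 of the 5 members differed beyond counting error, where 49.1% of all tested genes did. The median ratio was 0.060 over the 5 members and 0.0091 over all genes tested.

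Mir129-2 had a ratio of -1.42 (adjusted p = 0.0157, exact binomial test) on 32 counts in all, and it left the test when at least 50 counts were required. Its partner Mir129-1, which also holds miR-129-5p, went the other way, with 0 counts in replicate 1 and 7 in replicate 2. How reads of that shared arm were divided is not known. Mir218-2 had a ratio of -0.73 (adjusted p = 0.0303, exact binomial test), under 2-fold. Mir129-2 and Mir218-2 were both higher in replicate 1. In that library the epithelium and skin list was 24.8 times, and Mir140 6.77 times, as high as in replicate 2. A list of 3 miRNAs of sensory neurons and hair cells, Mir183, Mir96 and Mir182, also had 376 CPM in replicate 1 and 112 CPM in replicate 2. The part of such tissue in the values of Mir129-2 and Mir218-2 was not tested. Mir128-1 and Mir128-2 had ratios of 0.47 and 0.49 (adjusted p = 7.84e-32 and 4.95e-26, exact binomial test), higher in replicate 2 and under 2-fold. The skeletal muscle list moved the same way. Its 8 measured genes, of 9, were all higher in replicate 2, with 5 beyond counting error, 0 called, none at 0 and a median ratio of 0.31. Mir1a-1, Mir133a-1 and Mir133a-2 did not differ beyond counting error. Of all 373 genes tested, 189 were higher in replicate 2, 49.1% differed beyond counting error and 5.09% were called. The list summed to 81335 CPM in replicate 1 and 89352 CPM in replicate 2. Its ratios ran from 0.15 (Mir208b) to 0.61 (Mir1a-1), with Mir206 at 0.27, Mir133b at 0.48 and Mir486 at 0.51. Genes outside the list, such as Mir431 (0.45) and Mir433 (0.46), also had ratios near those of the Mir128 genes. The part of muscle content in the Mir128 values was not tested. Mir338 had a ratio of 0.060 (adjusted p = 0.366, exact binomial test), which was -0.074 with scaling by total counts. The biological coefficient of variation between the libraries, from edgeR's common dispersion over all genes tested, was 0.319.

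**Figure D3:**
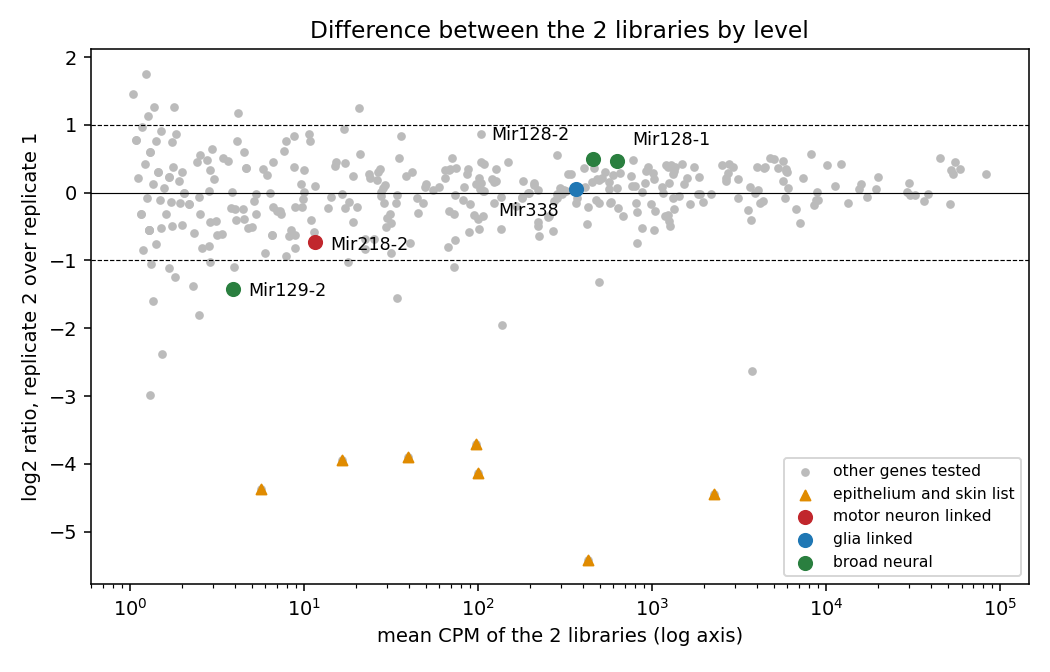
Log2 ratio of replicate 2 over replicate 1 against mean CPM (log axis) for the 373 genes tested, with the 5 tested members coloured by class, the epithelium and skin list as triangles and dashed lines at 2-fold. Mir129-2 at -1.42 is the only member outside the dashed lines, and the 7 epithelium and skin genes lie lower, from -3.70 to -5.41.

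Other miRNA genes known from neurons and glia were described as a list of 19, of which 17 were measured. Mir219b and Mir3065, the other 2, were not analysed here. The list summed to 259 CPM in replicate 1 (243 to 276) and 215 CPM in replicate 2 (202 to 228), fewer assigned counts than Mir338 alone. However, 9 of its 17 measured genes hold 20 or more consecutive bases that recur in a different miRNA gene, and Mir338 does not. Reads that map to several places were left out of the counts. The summed level of the list is therefore uncertain, and so is its place below Mir338. Of 12 tested genes 0 were called, where 5.09% of all tested genes were, and 2 differed beyond counting error, both higher in replicate 1, where 49.1% of all tested genes did. The 3 Mir124a genes, which make the most neuron-specific miRNA of the list, had 0 counts in both libraries. They share 32 bases with one another, so the level of miR-124, like that of miR-9, was not measured by these counts.

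Mir132 was the highest gene of the list, with 391 and 540 counts. Made after neuronal activity and from the same transcript as Mir212, it had 104 CPM in replicate 1 and 105 CPM in replicate 2. Mir212 had 10.9 and 8.57 CPM, so that Mir132 was 9.54 times as high in replicate 1 (6.90 to 13.5) and 12.3 times in replicate 2 (9.02 to 17.1). Mir338 was 3.62 times Mir132 in replicate 1 (3.24 to 4.06) and 3.41 times in replicate 2 (3.09 to 3.76), a difference far outside counting error in both pups. Mir137, a miRNA of neuronal differentiation, had 31.7 and 25.9 CPM. Neither Mir132, Mir212 nor Mir137 shares a stretch of 20 bases with another miRNA gene, and none differed between the libraries beyond counting error.

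Mir138-1 and Mir138-2, which make a synaptic miRNA in common, were the 2 genes that differed. Mir138-1 had 29.8 and 15.2 CPM, a ratio of -0.84 (adjusted p = 0.000201, exact binomial test). Mir138-2 had 32.2 and 18.3 CPM, a ratio of -0.68 (adjusted p = 0.00149, exact binomial test). Both were under 2-fold and, like Mir129-2, higher in replicate 1. Of all 183 tested genes that differed beyond counting error, 86 were higher in replicate 1. They share 24 bases, and how reads of the shared arm were divided is not known.

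Among genes of glia, the partner of miR-338 in myelinating cells of the brain is miR-219. Mir219a-1 had 31 and 25 counts, or 8.26 and 4.87 CPM, and Mir219a-2 had 1 and 2 counts. Mir338 was 45.7 times Mir219a-1 in replicate 1 (32.0 to 67.5) and 73.6 times in replicate 2 (49.7 to 114). The Mir219a pair shares 22 bases, so its level is uncertain, and that ratio with it. The remaining genes with at least 10 counts in both libraries were low in assigned counts. Mir7-1, in an intron of Hnrnpk, had 22.6 and 17.7 CPM. It shares 24 bases with Mir7-2, so its level is uncertain. Mir346, in an intron of the glutamate receptor gene Grid1, had 5.86 and 7.40 CPM, and Mir383, in an intron of Sgcz, had 5.86 and 3.70 CPM. Mir153, in an intron of Ptprn2, had 2.93 and 2.73 CPM, and Mir488, in an intron of Astn1, had 2.66 and 2.34 CPM. None of these 5 differed beyond counting error.

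**Figure D4:**
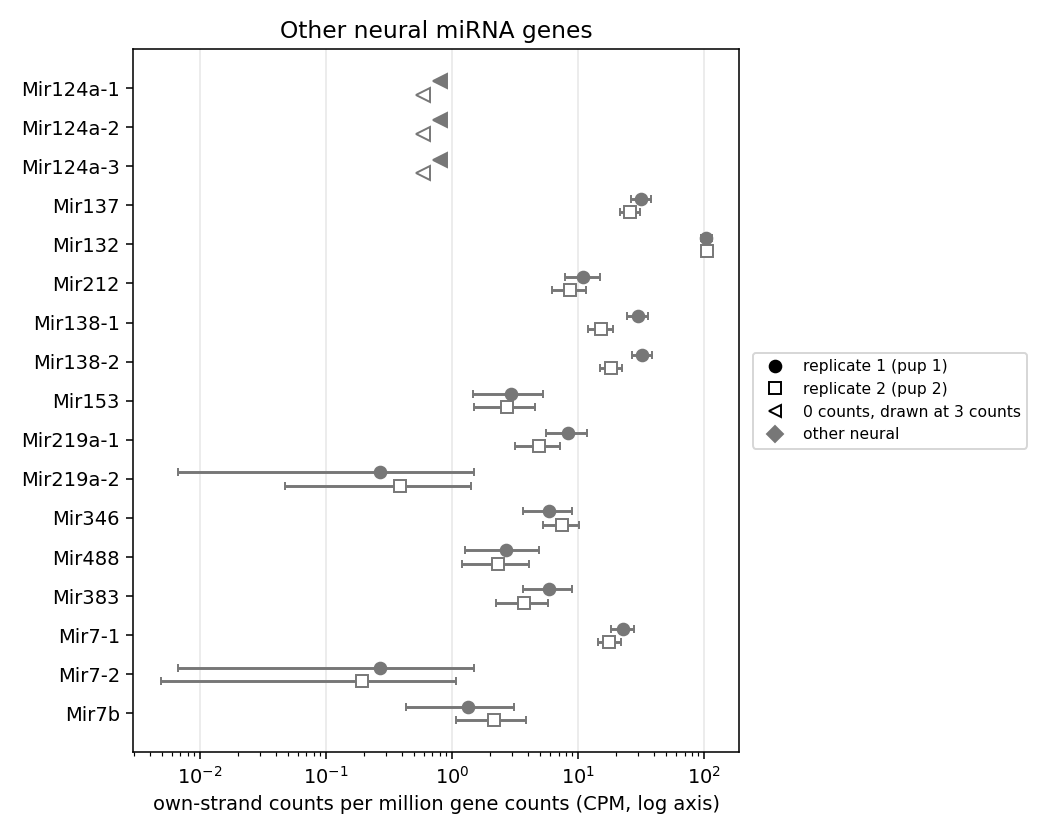
Own-strand level (CPM, log axis) of the 17 measured genes of the list of other neural miRNAs in replicate 1 (filled) and replicate 2 (open), with exact 95% intervals as bars and genes at 0 counts drawn as triangles at 3 counts. Mir132 lies highest, at 104 and 105 CPM, and the 3 Mir124a genes are at 0 counts in both libraries.

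For scale, the 2 listed genes closest in level to each member with at least 10 counts in both libraries were found by Euclidean distance in log2(CPM + 1) over the 2 libraries. Closest to Mir128-1 were Mir496a (621 and 690 CPM) and Mir499 (573 and 626 CPM), the latter a miRNA of a myosin heavy chain gene. Mir128-2 lay nearest to Mir377 (425 and 496 CPM) and Mir27a (447 and 452 CPM). Mir338 lay nearest to Mir24-2 (392 and 377 CPM) and Mir674 (398 and 342 CPM). The neighbours of Mir218-2 were Mir196a-1 (14.1 and 8.57 CPM) and Mir193b (13.0 and 8.96 CPM), and those of Mir129-2 were Mir3066 (5.59 and 2.34 CPM) and Mir490 (4.26 and 2.53 CPM). By mean CPM Mir128-1 ranked 108th and Mir128-2 122nd of the 1973 listed genes.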

How the data were processed

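For each library the authors deposited a table of read counts by miRNA gene, made on mm10 with annotation M4 per the deposited file descriptions; aligner and counter are not given in the sources used here. The 3 count columns have no names. In every gene the first equals the sum of the other 2, so they were read as either strand, own strand and opposite strand, and own-strand counts were used. The 4 leading lines (unmapped 9.66% and 10.1%, several places 30.2% and 29.9%, no gene on the read's strand 7.56% and 8.44%, ambiguous 0%) stayed out of library sizes. Names, places and hosts came from GENCODE M21, mature sequences from RefSeq.

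Members, lists and tests were chosen with earlier results of these data known. Genes named are all members, genes of the other neural list with at least 10 counts in both libraries, and the 2 genes nearest each member in level. Genes named beyond these, such as Mir219a-2 and the marker genes, were chosen after their values were seen. TMM factors (1.05 and 0.954) used edgeR 4.0.16 in R 4.3.3, and tests and intervals used scipy 1.17.1. The test procedure was tested on simulated data. Alternatives were other strand columns, scalings (DESeq2 1.42.0 size factors, total counts), filters, pseudocounts and denominators, each library alone, unique members, the highest member and, added after seeing the data, gene length.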

Additional observations from a re-analysis of the deposited data

Results flagged for a closer look

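Reads on the strand opposite 2 genes exceeded the limit of 3 counts that a count of 0 allows, in data not used for the levels. Opposite Mir338 there were 15 counts in replicate 1 and 3 in replicate 2, and GENCODE M21 places Mir3065 on that strand. Opposite Mir219a-1 there were 5 counts in replicate 1 and 2 in replicate 2. Their source was not tested.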

How the results depend on the processing

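With all reads as denominator the class levels were 6.54 CPM (motor neuron linked), 192 CPM (glia linked) and 567 CPM (broadly neural), since the denominator grows. Counting either strand gave 330 CPM for the glia linked level. The log2 ratio of broadly neural over glia linked was 0.76 with the highest member of each class and 1.99 per gene length. Of the members, 0 were called when at least 50 counts were required, because Mir129-2 was then not tested, and 1 in each of the other 5 alternatives. The ratio of Mir338 changed sign to -0.074 with total counts as scaling. The remaining alternatives moved class levels and class ratios by less than 1 SD and the other 19 member ratios kept direction and side of the threshold. A single library always lies within 1 SD of the mean of 2, so leaving one out shows no stability. No paired analysis was possible because both libraries belong to 1 group. Levels of Mir218-1, Mir129-1, Mir9-2 and Mir9-3 rest on fewer than 10 counts each, so the main test left these genes out. With no filter on low counts, 8 members were tested and only Mir129-2 was called.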
